A study of Mus musculus with 7 samples.

Results

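The 10 genes described here are a set of mouse ribosome biogenesis genes, Bms1, Ncl, Nolc1, Npm1, Fbl, Nop56, Nop58, Dkc1, Gar1 and Naf1, out of 55341 annotated gene symbols against which the reads were matched. The set was named with earlier results of these data known, so its levels are a description. A read counted for a gene when, after its 6 leading bases were dropped, its best match was to the transcripts of that gene alone. At most 2 mismatches were allowed, and a worse match to another gene did not exclude a read. All 10 genes were found in the annotation, and all 10 had at least 50 sense reads, whereas 29.1% of all nuclear protein-coding genes reached that number.

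The reads come from RNA immunoprecipitation sequencing (RIP-seq) of embryonic stem cells grown with LIF, a method that recovers a protein from nuclear lysate with an antibody and sequences the RNA found with it, here after template-switching cDNA synthesis. The target was Ezh2, which methylates histone H3 as the catalytic subunit of the Polycomb complex PRC2. The labels list 7 libraries. In 5 of them an Ezh2 antibody was used on cells of strain 129X(M.castaneusX129), untreated and with no genotype label. By their titles these are an Ezh2 RIP-seq sample, a technical replicate, a biological replicate, a deeper run, and a deeper run of a biological replicate. The titles do not say whether the deeper runs used the same samples as the others. In 1 library the Ezh2 antibody was used on Ezh2 null cells of strain M.musculus, and in 1 library IgG was used on cells of strain 129X(M.castaneusX129). All values below were computed from a single deposited list of read sequences and their counts, and neither a header nor a label ties it to any of these libraries. The list was treated as 1 pool, so there is no replicate spread, no value is an enrichment over IgG or over Ezh2 null cells, and all intervals cover counting error only. Reads made by amplification are not independent molecules, and for that reason start positions are given beside reads for the main shares.

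Of 34072479 reads in it, 31529044 were long enough to be searched. Of these, 36.1% were assigned to 1 gene alone, 11.4% were shared by several genes, and 52.6% found no transcript. The 10 genes held 151872 sense reads, or 2.59% of the 5863362 sense reads of nuclear genes. Of 10 embryonic stem cell markers, 9 had at least 50 sense reads, with Nanog below that at 37. All 8 fibroblast or feeder markers also reached 50 sense reads, from 70 for Lum to 5268 for Postn, and 2 of 8 markers of early differentiation did, with Foxa2 and Gata6 at 0. Summed over the lists this gave 36899 sense reads for the stem cell markers, 17463 for the fibroblast or feeder markers and 259 for those of early differentiation. L1td1 alone held 29926 of the stem cell marker reads, and the larger sum of that list rested on it. By median level, in the RPKM unit defined below, the stem cell and the fibroblast or feeder markers changed places, and those of early differentiation stayed lowest. The median was 5.52 for the stem cell, 9.30 for the fibroblast or feeder and 0.0709 for the early differentiation markers. The part of fibroblast RNA in the values below was not tested.

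Ribosomes are assembled in the nucleolus, where a long precursor RNA is transcribed, chemically modified, cut and joined with ribosomal proteins. Small nucleolar RNAs guide the modifications. Box C/D particles, with the methyltransferase fibrillarin (Fbl) and the scaffold proteins Nop56 and Nop58, add methyl groups to riboses, and box H/ACA particles, with the pseudouridine synthase dyskerin (Dkc1) and Gar1, convert uridine to pseudouridine. Naf1 is an assembly factor of box H/ACA particles that is exchanged for Gar1 as they mature. Nucleolin (Ncl), Nolc1 and nucleophosmin (Npm1) are abundant nucleolar phosphoproteins with long acidic stretches, and Bms1 is a GTPase needed for the small subunit.

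The sequences under the most used start positions show what the reads look like. Reads are the reverse complement of the RNA. The start position of a sense read is the RNA base under the 5′ end of its matched part, which is the 3′-most RNA base of that part. Each line gives 52 bases of RNA from GENCODE transcripts (GRCm38), 5′ to 3′ and written with T; the 34 bases in capitals are those matched by a 40-base read, and the 6 bases that follow them lie under the leading bases that were dropped. These positions are shown because they carried the most coding reads of each gene, with Bms1 represented by 2.
Bms1, 11662 reads: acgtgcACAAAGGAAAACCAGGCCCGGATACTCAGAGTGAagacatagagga
Bms1, 10424 reads: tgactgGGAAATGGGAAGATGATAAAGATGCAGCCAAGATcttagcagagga
Ncl, 540 reads: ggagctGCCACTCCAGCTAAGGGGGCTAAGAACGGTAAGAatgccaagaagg
Nolc1, 25 reads: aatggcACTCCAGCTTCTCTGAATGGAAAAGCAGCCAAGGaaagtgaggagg
Npm1, 1696 reads: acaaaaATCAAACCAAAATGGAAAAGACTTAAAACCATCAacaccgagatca
Fbl, 105 reads: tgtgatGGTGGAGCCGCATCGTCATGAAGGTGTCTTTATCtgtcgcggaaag
Nop58, 52 reads: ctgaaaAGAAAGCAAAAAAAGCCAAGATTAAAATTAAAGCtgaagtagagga
Dkc1, 106 reads: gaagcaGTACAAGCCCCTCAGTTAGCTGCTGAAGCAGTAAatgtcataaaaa
Gar1, 405 reads: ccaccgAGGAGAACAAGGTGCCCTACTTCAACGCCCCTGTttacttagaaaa

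At several of the positions shown, codons for aspartate and glutamate followed the start. Of the 12 codons downstream, 8 encoded Asp or Glu at the first Bms1 position and 6 at the second, 8 in Ncl, 10 in Nolc1 and 9 in Nop58. The corresponding number was 1 in Npm1, 2 in Fbl, 3 in Dkc1 and 3 in Gar1. At the second most used Nolc1 position, with 21 reads against 25, it was 3. Within the 12 codons under the capitals the numbers were 2 and 4 for the Bms1 positions, 0 for Ncl, 1 for Nolc1 and 0 for Nop58, so at these positions the acidic codons lay mainly beyond the matched part. These counts describe single positions and were not compared with other positions or genes. The Nop58 and Dkc1 lines are the second most used positions of these genes, since the first lie in the 3′ UTR and in a retained intron, and no line is given for Nop56 and Naf1.

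Levels differed widely among the 10 genes and were led by Bms1. On the RPKM scale, which divides the sense reads by exon length in kb and scales them to 1000000 searched reads, Bms1 stood at 872 (exact Poisson 95% interval 868 to 877), the 3rd highest value of all nuclear coding genes. Npm1 followed at 47.7 (46.3 to 49.2), Gar1 at 30.6 (29.1 to 32.1), Ncl at 25.5 (24.9 to 26.03) and Naf1 at 16.6 (15.8 to 17.4). Bms1 alone held 87.9% of the sense reads of the set.

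The other genes were lower. Dkc1 stood at 6.60 RPKM (6.16 to 7.05), Fbl at 5.17 (4.79 to 5.57), Nop58 at 2.75 (2.58 to 2.94), Nolc1 at 2.52 (2.25 to 2.82) and Nop56 at 0.905 (0.749 to 1.09). Along this order only the neighbours Nop58 and Nolc1 had overlapping intervals. The order depends on reads with near copies elsewhere: when no other gene was allowed within 1 further mismatch, Npm1 dropped to 24.9 (23.9 to 26.01), below Gar1 at 30.3 (28.9 to 31.8), and Fbl to 1.83 (1.61 to 2.08), below Nop58 at 2.67 and Nolc1 at 1.97 (1.73 to 2.23), the last with an overlapping interval. The 3 box C/D genes, whose proteins work in 1 particle, had levels that differed from each other beyond counting error under either rule, with Fbl above Nop58 in the first and below it in the second, and Gar1 lay above Dkc1 under both. Both rules left out reads that matched several genes equally well, 85.8% of Fbl, 85.1% of Nop56 and 76.8% of Nop58 reads. With them included, the sense reads numbered 4838 for Fbl, 783 for Nop56 and 4031 for Nop58. The box C/D order above thus holds for single-gene reads only. The sense reads behind the levels of the first rule, which also grow with transcript length, numbered 133501 for Bms1, 8181 for Ncl, 4010 for Npm1, 1653 for Gar1, 1617 for Naf1, 934 for Nop58, 857 for Dkc1, 686 for Fbl, 316 for Nolc1 and 117 for Nop56.

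**Figure D1:**
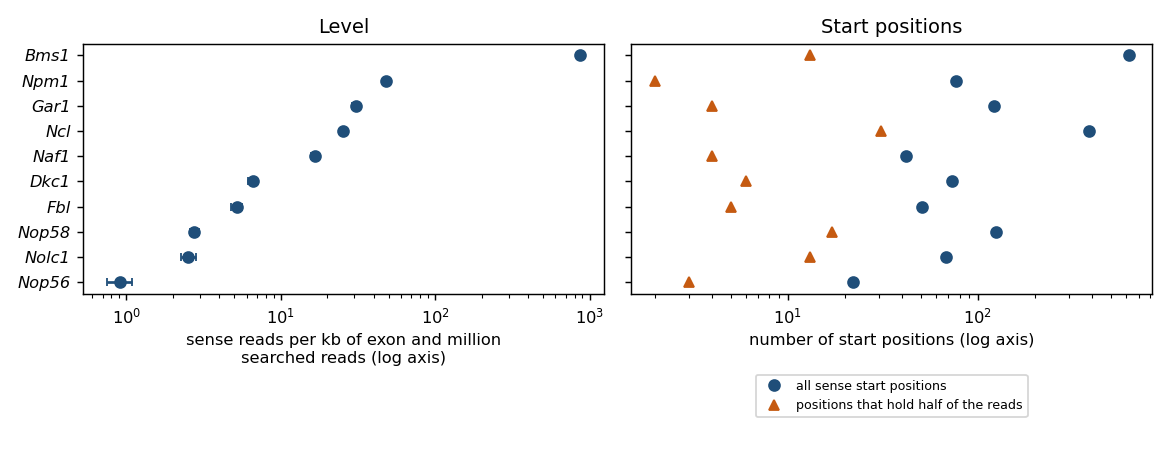
Left, level in RPKM (exon length in kb, 1000000 searched reads) on a log axis, with exact Poisson 95% intervals; right, the number of start positions of each gene (circles) and the smallest number of positions that hold 50% of its sense reads (triangles), on a log axis. Bms1 lies far to the right at 872, and Npm1, second by level, has 50% of its reads at 2 positions.

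The levels rested on very different numbers of start positions. Bms1 reads began at 622 positions and Ncl reads at 386, and 50% of the reads were reached with 13 and 31 positions. Npm1 had 77 positions, yet 2 of them held 50% of its 4010 reads and the highest alone held 42.3% (exact Clopper-Pearson 95% interval 40.8 to 43.8). The highest position held 26.5% of reads in Nop56, 25.9% in Naf1 and 24.5% in Gar1, against 6.60% in Ncl, 6.64% in Nop58, 7.91% in Nolc1 and 8.74% in Bms1. Over 2705 genes with at least 200 sense reads the median was 16.2%, with quartiles of 11.2% and 24.3%. Fbl, at 15.3%, and Dkc1, at 13.9%, lay between these quartiles.

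**Figure D2:**
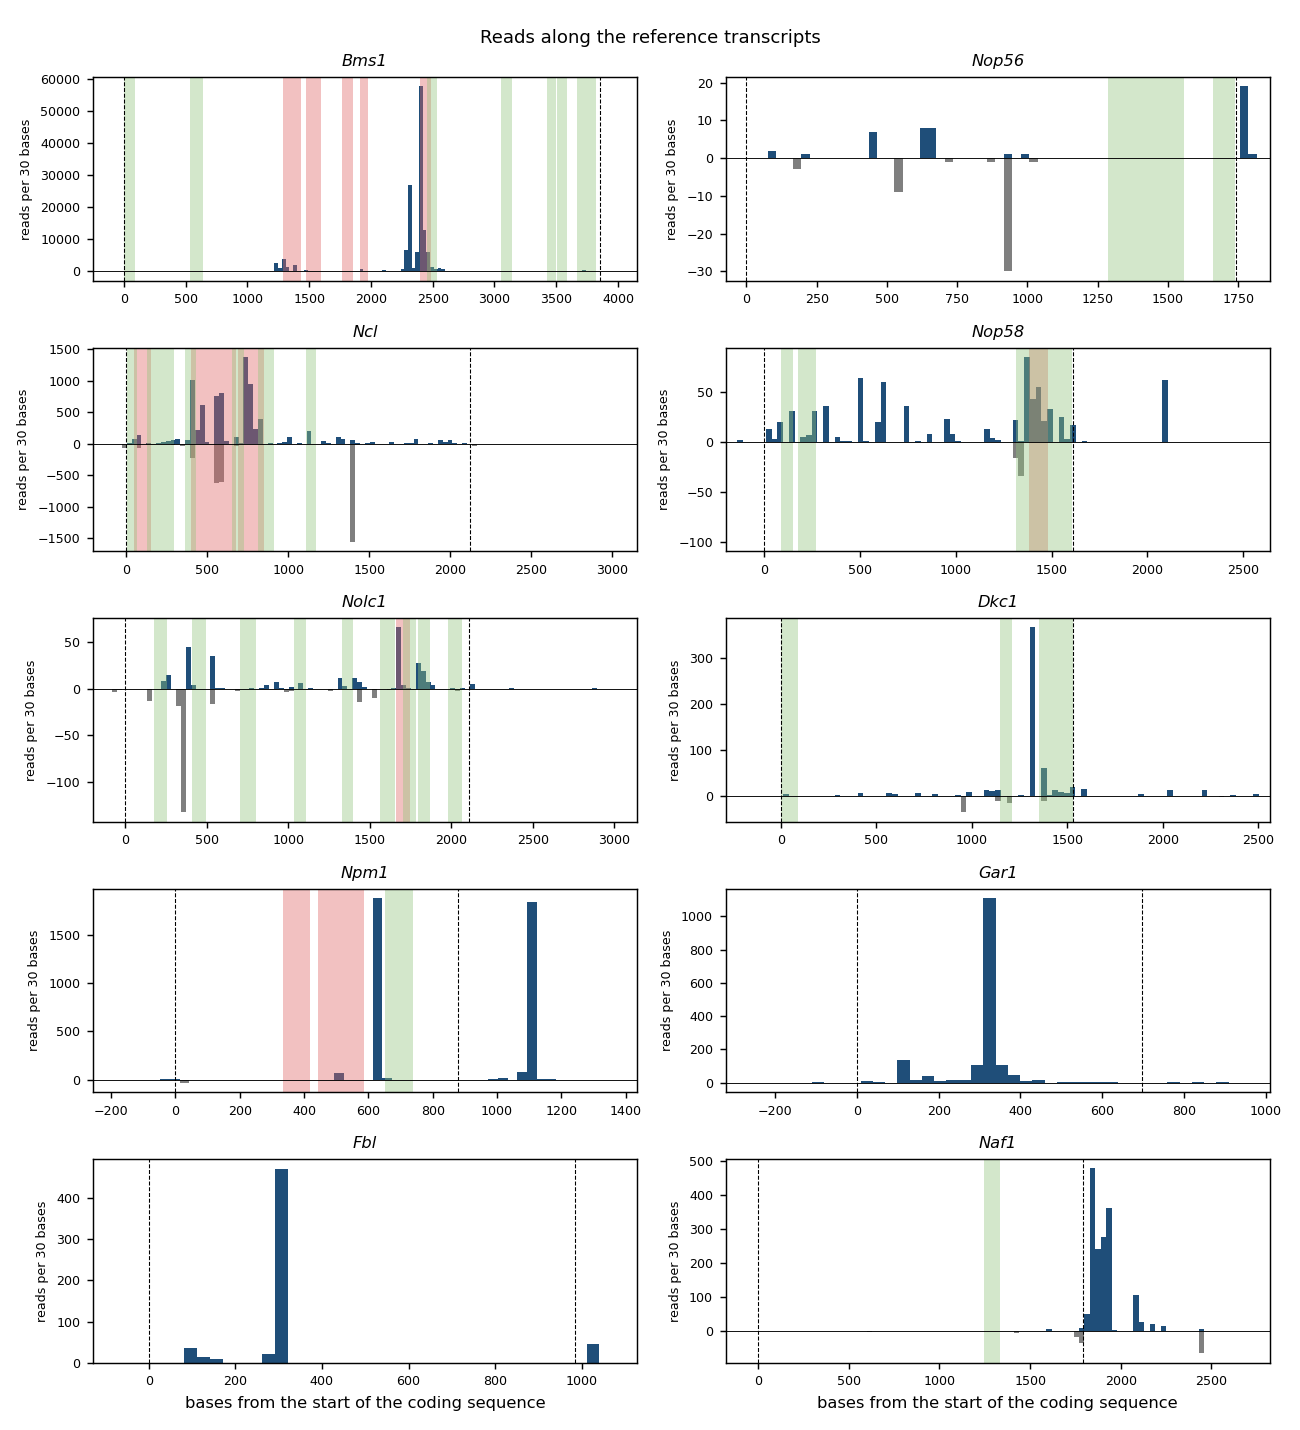
Reads per 30 bases of the reference transcript against the distance from the start of the coding sequence in bases, for sense (blue, upward) and antisense reads (grey, downward); red shading marks acidic parts, green lysine-rich parts, and dashed lines the ends of the coding sequence, with up to 1000 bases shown beyond it. The tallest bars stand at the last acidic part in Bms1, in the acidic parts of Ncl, away from any acidic or lysine-rich part in Gar1, and beyond the coding sequence in Naf1.

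Bms1 lies on the minus strand at chr6:118383381-118419474 (GRCm38) and encodes 1284 residues in 23 exons. Of its sense reads, 99.97% lay in coding sequence and 26 reads lay in the 3′ UTR. A 100-base window over codons 769 to 802, at the junction of exons 13 and 14, held 81411 reads, 61.0% of all sense reads on 2.30% of the transcript. Reads of both lengths piled up there, with 50.5% of the 36-base and 61.4% of the 40-base reads. In the sequence of that window, chr6:118396772-118398107, the Asp and Glu codons are in capitals, 11 of 33 codons in all.
Bms1 window: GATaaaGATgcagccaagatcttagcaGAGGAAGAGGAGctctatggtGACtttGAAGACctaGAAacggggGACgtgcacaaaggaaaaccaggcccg

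Many Bms1 reads crossed exon junctions and so matched spliced RNA. The matched part crossed an exon junction of the transcript in 49031 of 133484 reads, or 36.7% (36.5 to 37.0), where 16.8% of all 34-base windows of the transcript do. Reads crossed 6 of its 22 junctions. The matched part at the most used start position begins in exon 14 and ends in exon 15, and the 52-base stretch printed for it spans an intron at chr6:118396290-118396797.

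Acidic parts were defined on the proteins as merged windows of 20 residues with at least 50% Asp and Glu, and a read was placed by the midpoint of its matched part. Bms1 has 5 such parts, together 13.1% of its coding length, which held 58.7% of its coding reads (58.4 to 58.9) and 34.1% of its coding start positions (30.3 to 37.998). By reads the excess came from 1 part. Residues 799 to 828, with 13 Asp or Glu of 30, held 71010 reads at 85 positions, and residues 431 to 479 held 6585 reads at 80 positions. The other parts held 15, 63 and 631 reads. Without residues 799 to 828 the acidic parts held 11.7% of the remaining coding reads (11.4 to 11.9) on 11.005% of the remaining length. By start positions the excess did not rest on it, since without it the acidic parts still held 124 of 528 coding positions, 23.5% (19.9 to 27.3). With windows of 30 residues that stretch no longer counts as acidic, and the reads per acidic length fell to 0.774 times that of the whole coding sequence, from 4.48 times. Lysine-rich parts, windows of 20 residues with at least 30% Lys, made up 17.5% of the Bms1 coding length and held 6.26% of its reads (6.13 to 6.39), of which residues 818 to 846, overlapping the acidic part, held 7759 of 8348. By start positions the lysine-rich share, 15.008% (12.3 to 18.1), lay neither above nor below the length.

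Nucleolin, which binds and remodels ribosomal precursor RNA, is encoded on the minus strand at chr1:86344719-86359400. Coding sequence makes up 25.9% of its reference transcript but held 98.9% (98.6 to 99.1) of the sense reads. The annotated 3′ UTR makes up 71.9% of that transcript and held 12 single-gene reads, and 1380 further reads there were shared with other genes. The Ncl level given above divides by all 10188 exonic bases of the gene, so it depends on this annotation. The 3 acidic parts of Ncl cover 25.3% of the coding length and held 73.9% of the coding reads (72.9 to 74.9) and 56.5% of the coding start positions (51.2 to 61.6). Residues 134 to 225 held 2807 reads at 101 positions and residues 231 to 283 held 2998 reads at 84 positions, whereas residues 17 to 50, also acidic, held 172. The excess therefore did not rest on a single part.

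Lysine-rich parts of Ncl held 25.4% of coding reads (24.5 to 26.4) on 25.035% of the coding length, and the share lay neither above nor below the length. That call depended on the setting, with 0.624 times the share of length with windows of 30 residues and 0.803 times without the highest start position, both below it, and 1.10 times without mismatches, above it. Unlike Bms1, Ncl also gave many antisense reads. They numbered 3427, or 29.5% of its reads (28.7 to 30.4), at 73 positions. The highest antisense position, at codon 463 in exon 9, held 1556 of them, and the second lay at codon 186. The acidic residues 134 to 225 held 1457 antisense reads, while the neighbouring residues 231 to 283, with more sense reads, held 5.

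Nolc1, a chaperone-like phosphoprotein that binds both classes of small nucleolar particle, lies at chr19:46075863-46085530 and had 316 sense reads at 68 positions. It has 1 acidic part, residues 554 to 583, on 4.27% of the coding length. This part held 72 of 300 coding reads, or 24.0% (19.3 to 29.2), and 17.5% of the coding start positions (9.05 to 29.1). The 9 lysine-rich parts, between which its serine-rich acidic repeats lie, made up 34.5% of the length and held 21.3% of reads (16.8 to 26.4), below their share of length, and 28.6% of start positions (17.9 to 41.3), on neither side of it. With windows of 30 residues, lysine-rich parts instead held 2.38 times their share of length. Antisense reads made up 41.2% (37.0 to 45.4), with 91 of 221 at 1 position at codon 110.

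Npm1, a histone and ribosomal protein chaperone, lies on the minus strand at chr11:33152287-33163206. Its reads formed 2 narrow peaks. The first, at codon 216, held 1696 reads and lies past the acidic parts, and the second, in the 3′ UTR, lay within a 100-base window with 1936 reads. The acidic parts cover 26.03% of the coding length but held 67 of 1963 coding reads, or 3.41% (2.65 to 4.31). By start positions the picture was the opposite, since 18 of 25 coding positions, 72.0% (50.6 to 87.9), lay over acidic parts, a number of positions too small to be tested by the rule used here. With the highest start position left out, the read share over acidic parts was 0.964 times the share of length, against 0.131 times with it. The low read share thus rested mainly on that position.

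The low read share of the Npm1 acidic parts coincided with sequence shared by other genes. Only 14.9% of 34-base windows over the acidic parts could be assigned to Npm1 alone, against 55.3% over its whole transcript. A further 2979 reads matched Npm1 and other genes equally well, among them processed pseudogenes such as Gm9118 with 2435. With these reads included, 48.9% of coding reads lay over acidic parts. No read lay over the lysine-rich part, where a count of 0 of 1963 allows up to 0.153%, and 12.6% of the windows there could be assigned.

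**Figure D3:**
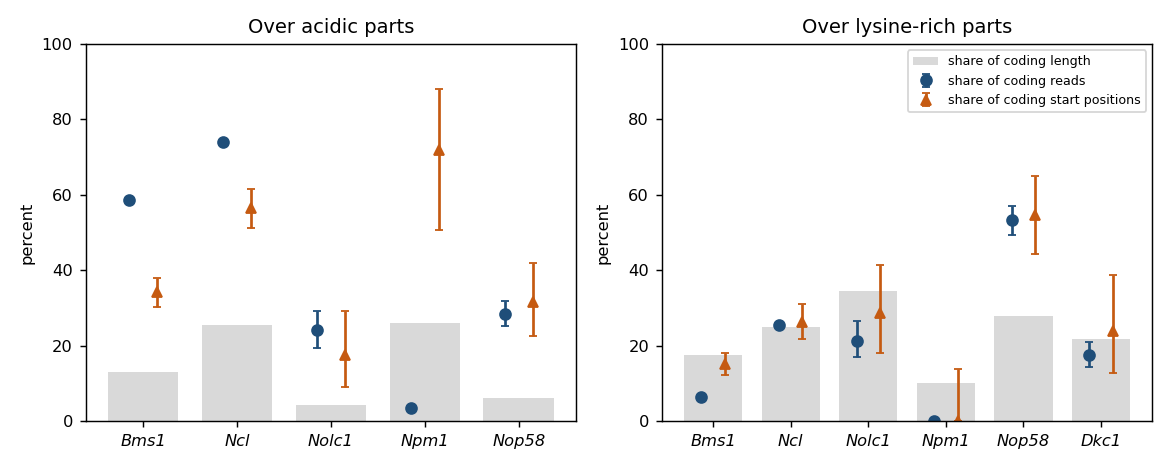
Share of coding reads (circles) and of coding start positions (triangles) over acidic parts (left) and lysine-rich parts (right), in percent with exact 95% intervals, for the genes with such parts and at least 200 coding reads; grey bars show the share of coding length. Over acidic parts both shares lie above the bar in Bms1, Ncl, Nolc1 and Nop58, and in Npm1 reads and positions fall on opposite sides of it.

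The box C/D proteins differed in where their reads lay. Nop58, a scaffold of the box C/D particle, lies at chr1:59684971-59719044. Coding sequence is 16.9% of its reference transcript and held 74.6% (71.7 to 77.4) of 934 sense reads, and 20.6% lay in the 3′ UTR. These shares hold for single-gene reads only. A further 3047 reads on this transcript matched other genes equally well, 3039 of them in the 3′ UTR and 8 in coding sequence. The acidic part of Nop58, residues 462 to 494 near the C-terminus, is 6.16% of the coding length and held 28.4% of coding reads (25.1 to 31.9) and 31.6% of start positions (22.4 to 41.9). This part lies inside a lysine-rich stretch, residues 439 to 536, with 295 reads, and lysine-rich parts together held 53.2% of coding reads (49.4 to 57.0) on 27.8% of the length. The matched part crossed an exon junction in 26.4% of reads (23.5 to 29.4), against 4.88% of windows of the whole transcript. As 81.2% of that transcript is 3′ UTR and most reads were coding, these 2 shares are not on the same footing. Windows of the coding sequence alone were not counted.

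Fbl, the methyltransferase of the particle, lies at chr7:28169710-28179269 and has neither an acidic nor a lysine-rich part. A 100-base window over codons 71 to 104 held 491 of 686 sense reads, 71.6%. The window spans part of the glycine- and arginine-rich region of the protein, with 11 Gly and 5 Arg of 34 residues, and the exon 3 to 4 junction. At the 3 most used start positions the matched parts lay over codons 93 to 106, past most of these Gly and Arg codons. Reads crossed the exon 3 to 4 junction and no other, in 80.8% of cases (77.4 to 83.9). In the sequence of this window, chr7:28174805-28174991, Asp and Glu codons, again in capitals, number 2 of 32.
Fbl window: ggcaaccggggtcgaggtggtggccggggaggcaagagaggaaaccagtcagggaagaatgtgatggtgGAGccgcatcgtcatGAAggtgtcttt

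These Fbl values rest on a small part of the transcript. Only 22.3% of its windows could be assigned to Fbl alone, and 4152 further reads matched Fbl and other genes, chiefly Tulp4 with 3766 and the processed pseudogene Gm5812 with 3194. The shared reads had their own peak over codons 104 to 137, with 2221 reads. The Fbl level of 5.17 RPKM thus leaves out reads that matched other genes equally well, but it includes reads with near copies elsewhere. Of its 686 sense reads, 243 had no other gene within 1 further mismatch, which gave 1.83 RPKM.

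Nop56, the partner scaffold of Nop58, lies at chr2:130274430-130279313 and was the lowest of the set by single-gene reads. Of its 117 sense reads at 22 positions, 28 lay in the coding sequence of the reference transcript and 69 matched other isoforms only, 34 of them with a retained intron. A further 666 reads were shared with other genes, 326 with the processed pseudogene AC122861.1 and 207 with Gm23650, a small nucleolar RNA gene within Nop56. It was also the only gene of the set with more antisense than sense reads, 126 against 117. With 28 coding reads its lysine-rich parts, which held none of them, could not be tested.

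Among the box H/ACA genes, Gar1 had the sharpest peak in coding sequence. It lies on the minus strand at chr3:129824912-129831396 and 99.7% (99.3 to 99.9) of its 1653 sense reads were coding. A 100-base window over codons 92 to 125 in exon 3 held 1367 reads, 82.7% of all, on 7.87% of the transcript. The 3 most used start positions, with 405, 254 and 113 reads, lie within 4 bases of each other at codons 113 and 114. Gar1 has neither an acidic nor a lysine-rich part, and 7 of the 33 codons in its window, chr3:129829364-129829462, encode Asp or Glu.
Gar1 window: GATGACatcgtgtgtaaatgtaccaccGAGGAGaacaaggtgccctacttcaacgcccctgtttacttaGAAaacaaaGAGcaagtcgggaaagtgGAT

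Dkc1, the pseudouridine synthase, lies at chrX:75095854-75109777. Of its 857 sense reads, 62.5% (59.2 to 65.8) lay in coding sequence and 255 reads, 29.8%, matched only isoforms with a retained intron, including its most used start position with 119 reads. The coding peak, a 100-base window over codons 429 to 462, held 427 reads, 49.8%. Lysine-rich parts held 17.5% of coding reads (14.4 to 21.03) on 21.6% of the length, below it. That direction turned when the highest start position was left out, at 1.01 times the share of length, and with reads without mismatch, at 1.12 times. By start positions it was 1.11 times.

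Naf1, at chr8:66860217-66890564, was the opposite of Gar1 in position. Of its 1617 sense reads, 98.9% lay in the 3′ UTR, which is 35.0% of the transcript, and 17 reads lay in coding sequence, which is 60%. A 100-base window of the 3′ UTR held 1190 reads, 73.6%. The 3 most used start positions lay in exon 8, the last, which holds the whole 3′ UTR. None of the 1616 reads crossed an exon junction. The 1599 reads in the 3′ UTR could not cross one, and the 17 coding reads are too few to set a useful limit.

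**Figure D4:**
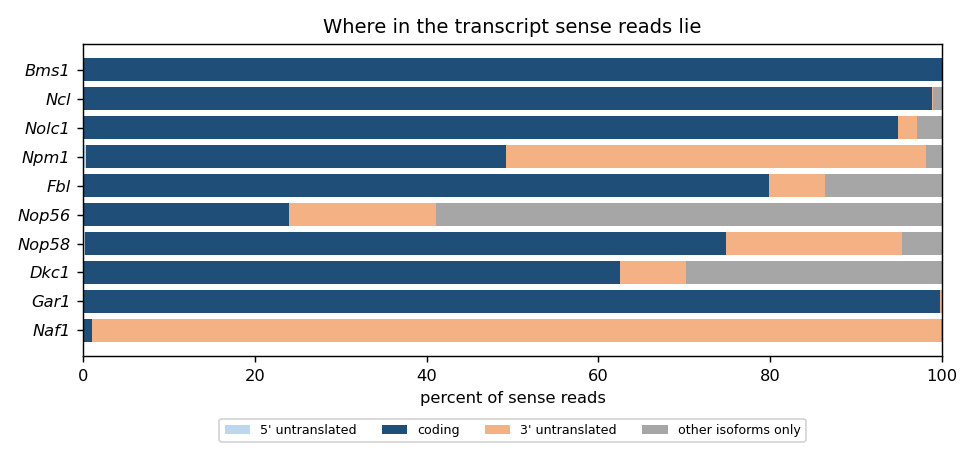
Percent of the sense reads of each gene in the 5′ untranslated region, the coding sequence, the 3′ untranslated region and outside the reference transcript on other isoforms, stacked to 100%. The Bms1, Ncl and Gar1 bars are almost wholly coding, Naf1 almost wholly 3′ untranslated, Npm1 is divided between both, and Nop56 and Dkc1 have the widest share on other isoforms.

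Across the set, 4 of the 5 genes with an acidic part and at least 200 coding reads had a read share above the share of coding length. Npm1 lay below, mainly through its highest start position. Over all such coding genes 51.0% lay above, 266 of 522, and 34.9% lay below. By start positions, with at least 50 of them, 4 of 4 genes lay above, against 54.6% of 346 genes. The read ratio was 5.62 in Nolc1, 4.61 in Nop58, 4.48 in Bms1, 2.92 in Ncl and 0.131 in Npm1, and the median over all genes tested was 1.51. More reads over acidic codons than their length would give was thus common in the table at large.

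Lysine-rich parts gave no such pattern. Of 6 genes tested, 1, Nop58, lay above its share of length, against 42.6% of 808 coding genes. By start positions 1 of 4 did, against 41.9% of 484 genes. Bms1, Nolc1, Npm1 and Dkc1, 4 of 6, lay below by reads, against 43.1% of all coding genes tested, and Ncl on neither side. By start positions none of the 4 genes tested lay below, against 6.61% of all coding genes tested. Bms1, Nolc1 and Ncl lay on neither side, and Npm1 and Dkc1 had too few positions.

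The base content of the RNA under the reads also varied by gene. GAA, GAG and AAA or AAG codons consist of purines, so that acidic and lysine-rich parts are rich in A and G. Purines made up 70.1% of the bases under Bms1 coding reads against 58.7% of all coding windows, a difference of 11.4 points. The difference was 8.41 points in Ncl, 4.44 in Nop58, 4.17 in Npm1, 2.19 in Nolc1 and 0.495 in Dkc1. It was below 0 in Fbl, at -7.88, and in Gar1, at -11.7, where 49.5% of bases under reads were purines. Over 1670 coding genes the median difference was 2.54 points, and 0.659% of them had a smaller value than Gar1. By start positions the order was another: the difference was 10.9 points in Npm1, 7.66 in Bms1, 6.69 in Nop58 and 4.96 in Ncl, Fbl turned to 1.34, and Gar1 stayed below 0 at -3.39. Bms1 and Ncl thus had the highest values of the set by reads but not by start positions.

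Read length set Gar1 and Fbl, and to a lesser degree Nolc1, above most genes. The table holds mainly 36-base and 40-base reads, and which library gave which length is not known. Of reads of these lengths, 67.9% (65.6 to 70.2) were 36 bases long in Gar1 and 40.7% (37.0 to 44.5) in Fbl. The share was 23.0% (18.1 to 28.4) in Nolc1, 14.3% in Ncl, 10.2% in Nop56, 9.67% in Bms1, 6.77% in Dkc1, 6.26% in Nop58 and 5.06% in Npm1. Naf1 was lowest at 1.42% (0.904 to 2.13). Over 2640 genes with at least 200 such reads the median was 10.2%, with quartiles of 6.84% and 15.4%. Gar1 stood above 99.8% of them, Fbl above 98.4% and Nolc1 above 90.1%, and 0.530% had a lower share than Naf1.

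The lengths shared many of their start positions in some genes and fewer in others, with numbers of positions that were unequal between the lengths. In Bms1, 354 positions had both lengths, out of 411 with 36-base and 557 with 40-base reads, and in Ncl 185, out of 221 and 346. Sharing was lower in Nolc1, with 16 out of 35 and 45, in Nop58, with 18 out of 37 and 105, and in Nop56, with 2 out of 7 and 16. In Gar1 29 positions had both, which is 82.9% of the 35 with 40-base reads and 25.7% of the 113 with 36-base reads. The highest Gar1 position had 238 reads of 36 bases and 167 of 40. In counts, Gar1 had 1117 reads of 36 bases and 528 of 40, and Naf1 had 23 and 1594.

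**Figure D5:**
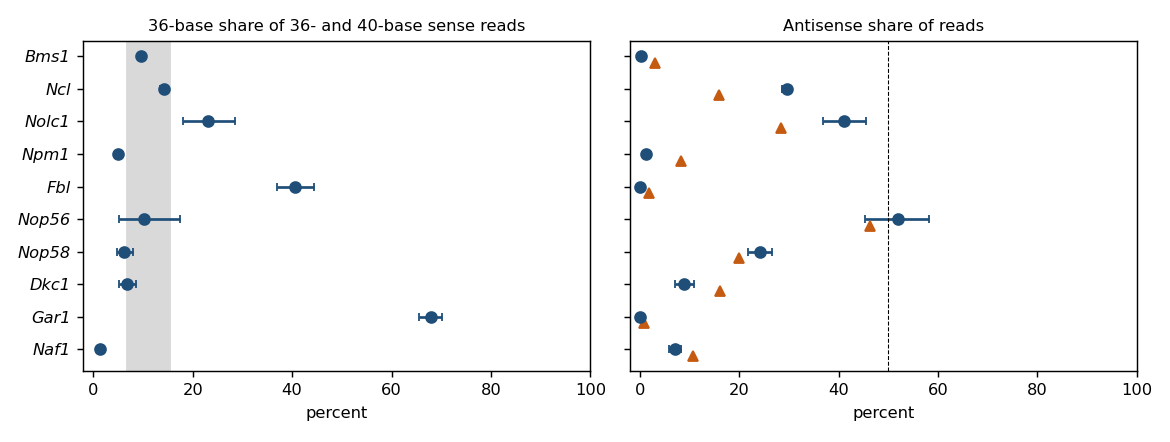
Left, percent of 36-base reads among 36- and 40-base sense reads with exact 95% intervals, the grey band marking the quartiles over 2640 genes; right, percent of antisense reads by reads (circles, with exact 95% intervals) and by start positions (triangles), the dashed line at 50%. Gar1, Fbl and Nolc1 lie to the right of the grey band at left, and Nop56 alone lies around the dashed line at right.

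The antisense share ranged from near 0 to about 50%. It was 0.121% in Gar1, 0.146% in Fbl, 0.223% in Bms1 and 1.26% in Npm1, then 7.02% in Naf1, 8.83% in Dkc1 and 24.1% in Nop58, and highest in Ncl, Nolc1 and Nop56, the last at 51.9% (45.4 to 58.3). In 0 of 10 genes did the interval lie wholly above 50%, against 15.7% of 8907 nuclear genes with at least 50 reads. By start positions the share was 46.3% in Nop56, 28.4% in Nolc1, 19.9% in Nop58 and 15.9% in Ncl, so the ranking of Ncl above Nop58 held by reads alone. Of the antisense reads of Nop58, 85 of 297 began at 1 position in the 3′ UTR, and of those of Naf1, 65 of 122.

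The leading bases that were dropped before matching often differed from the RNA in at least 1 base. In Bms1 all 6 matched the transcript in 22.8% of reads, and in Ncl in 23.0%. The mismatch rate in Bms1 fell from 40.7% at base 1 to 6.38% at base 6. A full match was more frequent in Naf1, at 71.1%, and in Nop56, at 79.2% of 48 reads. The values of Bms1 and Ncl were the lowest of the set, and Dkc1 came next at 26.9%.

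Small nucleolar RNAs encoded in introns of these genes were almost absent from the table as single-gene reads. Of 13 such genes annotated within Ncl, Nop56, Nop58 and Dkc1, Snord11 in Nop58 had 14 sense reads, Snord82 in Ncl had 9, Gm24451 in Nop56 had 1 and the others had 0. Reads shared between Nop56 and its small nucleolar RNA genes were more numerous, with 207 for Gm23650, 86 for Gm24451 and 11 for Snord57. Introns outside annotated transcripts were not analysed here.

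Other genes of the pathway were described in the same way, with no test against the 10 genes. Of 121 genes on a wider ribosome biogenesis list, 97, or 80.2%, had at least 50 sense reads, and their median was 1.39 RPKM against 0.0855 over all nuclear coding genes. The 8 with most sense reads were Dcaf13 with 16661, Ddx21 with 9460, Mdn1 with 7911, Cebpz with 5321, Gnl2 with 3481, Ddx10 with 3109, Noc3l with 2272 and Ddx47 with 2014, all below Bms1. By reads, 25 of the 33 tested genes on the list lay above their share of length over acidic parts and 4 below, where the shares over all coding genes were 51.0% and 34.9%. By start positions 21 of 24 lay above, against 54.6%. In Mdn1, an ATPase that remodels large-subunit precursors, acidic parts held 72.9% of coding reads on 4.74% of the length. Over lysine-rich parts 13 of 34 lay above and 17 below, against 42.6% and 43.1% of all coding genes, and by start positions 10 of 23 lay above, against 41.9%. In Ddx21, a nucleolar RNA helicase, these parts held 84.9% of coding reads on 25.3% of the length. An antisense share above 50% was called in 5 of 100 genes, against 15.7% of nuclear genes.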

How the data were processed

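The deposited table gives a count of reads for each of 6540936 distinct sequences, with no header. The counts are raw, as the authors deposited them, and the aligner and the steps that collapsed or filtered the reads are not given in the sources used here. The submitters' processing notes name build mm9, but the table holds no coordinates. The members and lists were chosen with earlier results of these data known. The named genes are the 10 members, their 3 highest start positions and the 8 genes with most sense reads on the wider ribosome biogenesis list, and positions were printed only where the stretch lies in coding sequence. Some items that this rule takes are not reported here.

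Reads of at least 26 bases lost their 6 leading bases, which often disagree with the RNA, and were matched with bwa 0.7.19 (up to 2 mismatches, no gaps, up to 1000 listed placements) to GENCODE M21 transcripts on GRCm38. A read with sense placements on 1 gene alone counted for it, so genes with pseudogene copies lose reads. The assignment was tested on simulated reads before use. The reference transcript of a gene is the one with the longest coding sequence. Intervals are exact Poisson (reads) or Clopper-Pearson (percentages) at 95%, computed with scipy 1.17.1. The limit set by a count of 0 is 3 counts of the total. A gene lay above or below its share of coding length when the whole interval did, with at least 200 coding reads, or at least 50 start positions. Reads within 1 pool are not replicates, so no p-value was computed, and comparisons between antibodies and genotypes were not made. Alternatives changed the counting unit, mismatches, read length, read minima, the definition of acidic and lysine-rich parts and the placing of a read.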

Additional observations from a re-analysis of the deposited data

How the results depend on the processing

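Bms1 stayed the highest of the 10 genes per kb under all alternatives run. The sense reads of the set, 151872, became 24841 with each distinct sequence once, 1587 with each start position once and 15385 with 36-base reads alone. Nuclear genes with an antisense share above 50% numbered 1399, and 335, 42, 832 and 246 with distinct sequences, start positions, no mismatch and 36-base reads, and 2570 and 443 with minima of 20 and 200 reads; no member was called under any of them. Requiring no other gene within 1 further mismatch left 2094 of 4010 Npm1 reads and 243 of 686 Fbl reads. Including reads with several equal placements raised Npm1 to 6989, Fbl to 4838, Nop56 to 783 and Nop58 to 4031 reads. Coding genes above their length share over acidic parts fell from 266 to 126, 41 and 58 with distinct sequences, start positions and 36-base reads at the same minimum of 200, where fewer genes could be tested, to 148 with at least 60% Asp and Glu and 160 with windows of 30 residues, and rose to 440 with a minimum of 50 coding reads. Members above it, 4 of 5 tested, were 2 of 2 tested with distinct sequences, start positions and 36-base reads, 3 of 4 with 40-base reads and with at least 60% Asp and Glu, and 2 of 4 with windows of 30 residues. Over lysine-rich parts the genes numbered 344, and 125, 31 and 50 with the same 3 units, 130 with at least 40% Lys, 184 with windows of 30 residues, 588 with a minimum of 50 coding reads and 203 with at least 50 start positions. Members above it, 1 of 6 tested, were 0 of 2 with each of those 3 units, 2 of 6 without mismatches, 2 of 4 with at least 40% Lys and 3 of 5 with windows of 30 residues.

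The ratio of read share to length share changed side in 4 genes that had a call. Ncl, without a call over lysine-rich parts at 1.01, was called below with distinct sequences at 0.855, at least 40% Lys at 0.0291, windows of 30 residues at 0.624 and no highest start position at 0.803, and above without mismatches at 1.10. Over acidic parts Npm1 went from 0.131 to 1.19 with distinct sequences and 2.77 with start positions (at either minimum), and Bms1 from 4.48 to 0.774 with windows of 30 residues, under which its main part is no longer acidic. Over lysine-rich parts Nolc1 went from 0.619 to 2.38 with windows of 30 residues. Dkc1 went from 0.812 to 1.11 with start positions (at either minimum), 1.12 without mismatches, 1.55 with at least 40% Lys, 1.38 with windows of 30 residues and 1.01 without its highest start position. Apart from the smaller number of genes tested and the Bms1 part, the cause was not tested. The count by at least 50 start positions and the Bms1 values without 1 part were chosen after seeing the data. No paired analysis was possible because the table is 1 pool with no sample columns. With no replicates and no control reads, depth limits only the precision of each count; 117 reads in Nop56 and 316 in Nolc1 give the widest intervals.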

Other observations

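Several bases under the reads differed from the GRCm38 transcript in a large share of reads. Substitutions are written with the reference base, its position counted from 1 at the 5′ end of the reference transcript, and the base read, in RNA sense. At least 50 covering reads and a share of at least 20% were required. In Dkc1, T1587C (chromosome X, position 75107241) was read in 150 of 188 covering reads, 79.8%, and leaves the amino acid the same. In Bms1, G2563A was read in 123 of 177 reads, 69.5%, and in Ncl, T735C in 565 of 946 reads, 59.7%, both also without a change of amino acid. Less frequent substitutions that change the amino acid were Ncl G733C at 27.8%, Nop58 T1594G at 26.9% and Bms1 C2564G at 24.8%, and Bms1 G2560A at 28.2% and Ncl T726C at 22.4% do not change it. In Naf1, T1987G, in the 3′ UTR, was read in 246 of 460 reads, 53.5%. The labelled strain 129X(M.castaneusX129) is a cross, and whether these are strain differences was not tested. Reads without any mismatch made up 70.9% of the sense reads of Dkc1, the lowest share of the set, and 95.6% of those of Npm1, the highest.

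Reads that matched several genes showed peaks that the single-gene reads miss. For Nop58, 3039 such reads lay in the 3′ UTR, 1331 of them in a 100-base window, where single-gene reads of the whole 3′ UTR numbered 192. For Ncl, 1380 lay in the 3′ UTR, against 12 single-gene reads.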
